A study of Mus musculus with 4 samples.

Results

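The 2 HMGA genes (Hmga2 and Hmga1), both Lin28 genes (Lin28a and Lin28b) and the 3 Igf2bp genes (Igf2bp1, Igf2bp2 and Igf2bp3) were examined in fibroblasts with and without Hmga2. These 7 genes were taken by name, with earlier results of these data known. They are 7 of the 25908 genes to which transcripts of the deposited RNA-seq table could be assigned. The cells were mouse embryonic fibroblasts (MEF) of the C57BL/6 strain, prepared at embryonic day 15.5 and immortalized with a simian virus, so that the libraries describe a cultured line and not the embryo. One genotype was wild type (Hmga2+/+) and the other was the Hmga2 knockout (Hmga2-/-), whose genotype label reads Hmga-/- while its sample title reads Hmga2-/-. MEF of each genotype were starved overnight in medium with 1% FCS, and the TGFB1 group then received recombinant human TGFB1 at 10 ng/ml over 24 h, whereas the Ctrl group received water. Each of the 4 combinations has 1 library, so differences between libraries are described without replicate support and without p-values. Whether a line stems from 1 embryo, from pooled embryos or from 1 clone is not given in the sources used here.

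HMGA proteins are small chromatin proteins that hold DNA through AT-hooks, short motifs that fit into the narrow groove of AT-rich DNA. They are abundant in the embryo, scarce in most adult tissues and high again in many tumours, which is what oncofetal means. LIN28A and LIN28B are RNA-binding proteins of stem and progenitor cells that stop the let-7 microRNA precursors from maturing. Mature let-7 microRNAs in turn lower the mRNAs of Hmga2, Lin28a, Lin28b and the Igf2bp genes by pairing with their 3′ untranslated regions (UTR). IGF2BP1, IGF2BP2 and IGF2BP3 are RNA-binding proteins that hold, move and stabilise fetal growth mRNAs, among them Igf2. Igf2bp2 is known from mouse embryos and cultured cells as a gene that HMGA2 activates.

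The shared feature of the 7 genes is printed first, because let-7 is the link between their families. The precursors of the let-7 family gave 9 mature 5p sequences in the RefSeq annotation of GRCm38.p6, and 1 seed (bases 2 to 8, in capitals) was common to all 9.
mmu-let-7a-5p: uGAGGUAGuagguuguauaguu
mmu-let-7b-5p: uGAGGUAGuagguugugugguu
mmu-let-7c-5p: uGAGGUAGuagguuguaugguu
mmu-let-7d-5p: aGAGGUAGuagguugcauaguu
mmu-let-7e-5p: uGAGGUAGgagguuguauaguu
mmu-let-7f-5p: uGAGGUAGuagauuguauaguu
mmu-let-7g-5p: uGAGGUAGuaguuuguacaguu
mmu-let-7i-5p: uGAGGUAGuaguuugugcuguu
mmu-miR-98-5p: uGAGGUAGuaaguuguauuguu
The letters CTACCTC, which pair with this seed, were searched on the sense strand of the longest GENCODE vM21 3′ UTR of each gene. All 7 genes held at least 1 match, 17 matches in all. Of the 3′ UTRs of 21010 genes, 9.02% held at least 1, but their median length was 960 bases, beside 1183 to 6337 bases in the 7 genes. Since the families are known for their link through let-7, this count describes the 7 genes and is not a test. Hmga2, Lin28b and Igf2bp1 held 4 matches each, Lin28a held 2, and Hmga1, Igf2bp2 and Igf2bp3 held 1 each. In 9 of the 17 the match was followed by an A, the base that lies opposite the first position of the microRNA. The matches of the 3 genes whose levels are described most closely below are shown with the bases around them, on the minus strand of mm10 (GRCm38) for Hmga2 and Igf2bp2 and on the plus strand for Hmga1, with the paired letters in capitals.
Hmga2, chr10:120364224-120364245: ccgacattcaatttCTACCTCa
Hmga2, chr10:120362987-120363008: cccactcctcaataCTACCTCt
Hmga2, chr10:120362549-120362570: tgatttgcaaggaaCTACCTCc
Hmga2, chr10:120361691-120361712: atcaaaacacactaCTACCTCt
Hmga1, chr17:27563278-27563299: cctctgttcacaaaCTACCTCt
Igf2bp2, chr16:22059473-22059494: cacacaaataaaagCTACCTCa
The other 2 Igf2bp genes held matches of the kind with a following A, and 1 of each is given for comparison, both on the minus strand.
Igf2bp1, chr11:95961778-95961799: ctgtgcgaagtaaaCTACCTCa
Igf2bp3, chr6:49086787-49086808: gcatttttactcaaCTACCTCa

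The 4 matches of Hmga2 lay in a 3′ UTR of 3014 bases. With Hmga2 itself included, 3 of the 2245 3′ UTRs within 20% of that length (0.134%) held at least as many. Counted the same way, it was 2 of 563 (0.355%) for Igf2bp1, with a 3′ UTR of 6337 bases. For Lin28b, with 4445 bases, it was 3 of 1270 (0.236%). A single match was common by comparison. Of the 3′ UTRs of like length, 8.08% held 1 or more for Hmga1, 12.1% for Igf2bp2 and 13.3% for Igf2bp3. These matches are letters in the annotation and not measured sites, and the shares are not a test, as the genes are known for this link.

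**Figure D1:**
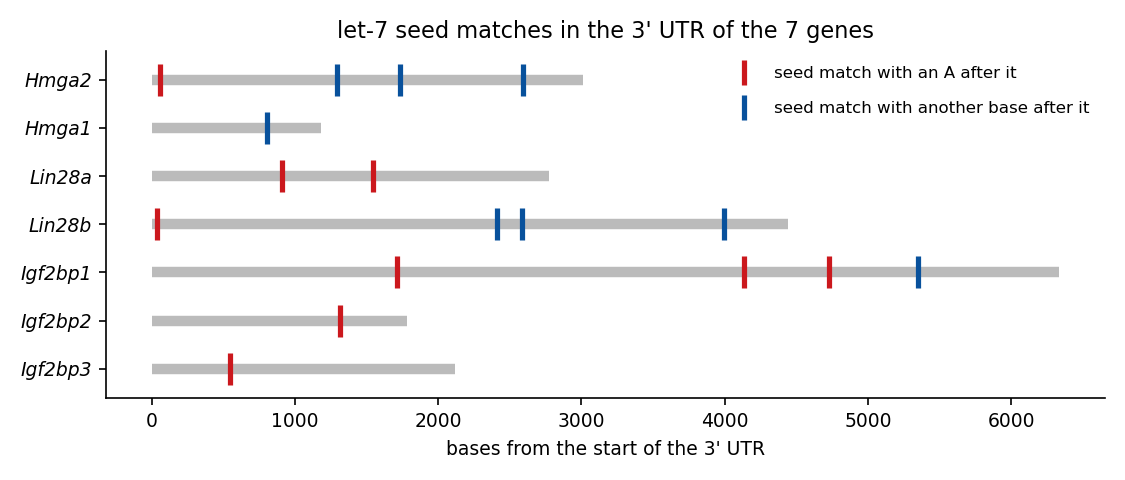
Each grey bar is the 3′ UTR of 1 gene, drawn to scale in bases from its start, and each mark is a let-7 seed match, red where an A follows it and blue where another base does. Hmga2, Lin28b and Igf2bp1 carry 4 marks each, Lin28a carries 2 and the other 3 genes carry 1.

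RNA was measured as RPKM, which corrects read numbers for transcript length and for library depth, so levels can be set side by side between genes. The libraries held between 56140000 and 57300000 mapped reads, and 3 reads were taken as the floor of detection. All 10 fibroblast markers were above 0 in every library, with a summed level of 2340 to 2929 RPKM. The 3 myoblast markers were at 0 in all 4 libraries. Of 8 markers of pluripotent cells, 5 to 6 were at 0, Pou5f1 and Zfp42 among them, and nearly all of their summed level was Sox2. The summed levels of the epithelial, leukocyte and glial markers stayed under 2 RPKM, and that of the endothelial markers was 1.14 to 7.46 RPKM, nearly all of it Kdr. Intervals below are exact 95% binomial intervals for the ratio of reads of 2 libraries and cover counting error only. In bulk RNA, fewer cells that express a gene and less RNA per cell cannot be told apart.

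Of the 7 genes, 5 reached 1 RPKM in at least 1 library. In Hmga2+/+ Ctrl MEF the order by RPKM was Igf2bp2, Hmga2, Hmga1, Igf2bp3 and Igf2bp1, from 24.9 down to 4.54 RPKM. The neighbours Hmga1 and Igf2bp3 were the closest in this order, with 7.22 and 6.58 RPKM, and there is no replicate spread to set against that gap. Lin28a and Lin28b stood apart at the bottom, at or under 3 reads everywhere. In Hmga2-/- Ctrl MEF the order was Igf2bp3, Igf2bp1, Hmga1 and Igf2bp2, with Hmga2 at 0.

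**Figure D2:**
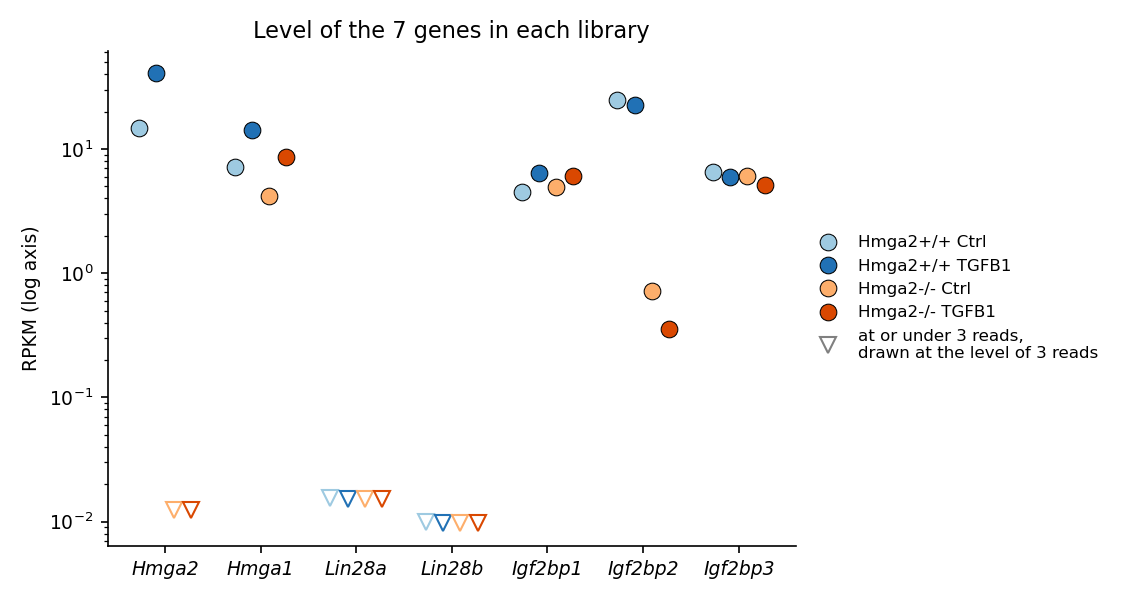
RPKM on a log axis for each gene in each of the 4 libraries, 1 point per library, with open triangles at the level of 3 reads where a library had 3 reads or fewer. Hmga2 and Igf2bp2 separate the genotypes by more than an order of magnitude, Igf2bp1 and Igf2bp3 stay between 4.54 and 6.58 RPKM, and both Lin28 genes are at the floor.

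Hmga2, the gene that was knocked out, lies on chromosome 10 (120361275 to 120476935, minus strand) and has 5 exons in its main annotated form. Its longest transcript had 14.8 RPKM (3544 reads) in Hmga2+/+ Ctrl, 40.7 RPKM (9957 reads) in Hmga2+/+ TGFB1, and 0 reads in both Hmga2-/- libraries. The library labels therefore match the genotype at this gene. With 0 reads replaced by the floor of 3 reads, Hmga2 was 1191-fold lower in Hmga2-/- Ctrl and 3299-fold lower in Hmga2-/- TGFB1. The interval of the log2 change had no lower end, and its upper end was −9.92 in Ctrl and −11.39 in TGFB1.

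The table lists 3 Hmga2 transcripts, and all 3 gave the same reading. The second full-length form had 15.1 RPKM in Hmga2+/+ Ctrl and 41.7 RPKM in Hmga2+/+ TGFB1. The third, a form annotated with a retained intron that covers the first exons only, had 8.23 and 20.3 RPKM. Both of these forms were at 0 in the Hmga2-/- libraries. A row for the microRNA gene Mir763, which lies on the same strand inside the intron between exons 3 and 4 of Hmga2, had 37.1 RPKM (248 reads) and 87.0 RPKM (593 reads) in Hmga2+/+ Ctrl and TGFB1. It was also at 0 reads in both Hmga2-/- libraries. No read was therefore counted over the exons of any listed form or over this stretch of intron.

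Hmga1, which encodes the other HMGA protein, lies on the plus strand of chromosome 17 from 27556574 to 27563672. It had 7.22 RPKM (723 reads) in Hmga2+/+ Ctrl, 14.2 RPKM (1454 reads) in Hmga2+/+ TGFB1, 4.15 RPKM (419 reads) in Hmga2-/- Ctrl and 8.65 RPKM (878 reads) in Hmga2-/- TGFB1. Both Hmga2-/- values lay below the Hmga2+/+ value of the same treatment, and Hmga2-/- TGFB1 lay above Hmga2+/+ Ctrl. The log2 change of Hmga2-/- against Hmga2+/+ was −0.80 (interval −0.98 to −0.62) in Ctrl and −0.72 (interval −0.84 to −0.60) in TGFB1. Over the 14 transcripts of Hmga1, which share most of their exons, the log2 change ranged from −0.89 to −0.80 in Ctrl and from −0.73 to −0.70 in TGFB1. A near-identical copy, Hmga1b on another chromosome, makes the assignment of Hmga1 reads uncertain, and its 2 rows with reads held 24 to 87 reads per library. The summed RPKM of the HMGA pair was 22.02 and 55.0 in Hmga2+/+ Ctrl and TGFB1 and 4.15 and 8.65 in the Hmga2-/- counterparts. Hmga2 made up 67.2% of that sum in Hmga2+/+ Ctrl and 74.1% in Hmga2+/+ TGFB1.

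The Lin28 genes were practically silent. Lin28a (chromosome 4, 134003330 to 134018816, minus strand) had 0 reads in all 4 libraries, where 3 reads would correspond to 0.0151 to 0.0154 RPKM. Lin28b (chromosome 10, 45376619 to 45470201, minus strand) had 1 read in each Ctrl library and 3 reads in each TGFB1 library. No fold is given for either gene, since every library was at or under the floor. A second long form of Lin28b had the same reads, and its 3 shorter transcripts had at most 1 read in any library. Levels of this kind were thus not detectable at this depth in either genotype or treatment.

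The let-7 side of the same circuit was read through the genes that make, trim or load microRNAs. Of 14 such genes, 12 reached 1 RPKM, and 0 of the 12 were 1.5-fold or more apart between genotypes in Ctrl or in TGFB1. Their median log2 change was −0.05 in Ctrl and −0.09 in TGFB1, beside −0.02 and 0.04 over all 11371 genes that reached 1 RPKM in at least 1 library. Of all these genes, 2.76% were lower and 3.02% higher in Ctrl, and 2.79% and 3.9% in TGFB1. A count of 0 in 12 is close to these shares. Xpo5, the exporter of microRNA precursors, had 14.04, 23.4, 14.5 and 22.9 RPKM in Hmga2+/+ Ctrl, Hmga2+/+ TGFB1, Hmga2-/- Ctrl and Hmga2-/- TGFB1. It was the only one of the 12 that was 1.5-fold higher with TGFB1, which held in both genotypes. Over all genes, 12.1% (Hmga2+/+) and 13.8% (Hmga2-/-) were higher, so 1 of 12 is close to the background. Ago1, an Argonaute protein that carries microRNAs, was lower with TGFB1, with log2 changes of −0.48 (Hmga2+/+) and −0.62 (Hmga2-/-). Tarbp2, a partner of Dicer, had log2 changes with TGFB1 of 0.14 and 0.54. Zcchc11, the uridylase that marks let-7 precursors for decay, had 16.0, 13.5, 15.1 and 11.98 RPKM in the same order of libraries. The log2 changes of Ago2 and Ago3 lay between −0.30 and 0.36 in the 4 comparisons.

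Of the 12 let-7 precursors listed, 6 reached 1 RPKM, and each rests on few reads, since the rows are short and the library is not one of small RNA. Mirlet7a-1 had 95, 72, 73 and 75 reads in Hmga2+/+ Ctrl, Hmga2+/+ TGFB1, Hmga2-/- Ctrl and Hmga2-/- TGFB1. Mirlet7f-1, its neighbour on chromosome 13, had 45, 57, 47 and 46 reads. Mir98 had 23, 25, 21 and 27 reads. For these 3 precursors the intervals of all 4 log2 changes included 0. Mirlet7d, the third of the chromosome 13 group, had 31, 9, 19 and 19 reads. Mirlet7e had 25, 18, 10 and 13 reads, and Mirlet7c-2 had 10, 0, 3 and 5. Past 1.5-fold, 3 of the 6 were lower and 0 higher in Hmga2-/- Ctrl, and 0 were lower and 2 higher in Hmga2-/- TGFB1. Of these 5 calls, only that of Mirlet7e in Ctrl (−1.33, interval −2.56 to −0.23) had an interval that left out 0, so the counts say little. Over all genes, 2.76% were lower and 3.02% higher in Ctrl, and 2.79% and 3.9% in TGFB1. With TGFB1, 0 of the 6 were higher and 2 lower in Hmga2+/+ MEF (12.1% and 17.7% over all genes). The 2 were Mirlet7d (−1.81, interval −3.07 to −0.71) and Mirlet7c-2 (10 against 0 reads), and both intervals left out 0. In Hmga2-/- MEF 1 was higher and 0 lower (13.8% and 15.9%). Mature let-7 was not measured here.

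The Igf2bp genes differed among themselves. Igf2bp2 (chromosome 16, 22059009 to 22163299, minus strand) had 24.9 RPKM (5408 reads) in Hmga2+/+ Ctrl, 22.7 RPKM (5039 reads) in Hmga2+/+ TGFB1, 0.722 RPKM (158 reads) in Hmga2-/- Ctrl and 0.354 RPKM (78 reads) in Hmga2-/- TGFB1. Both Hmga2-/- libraries were far below both Hmga2+/+ libraries. The log2 change was −5.11 (interval −5.35 to −4.88) in Ctrl, which is 34.5-fold lower. In TGFB1 it was −6.01 (interval −6.35 to −5.68), which is 64.2-fold lower.

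Among the 4205 genes with at least 10 RPKM in Hmga2+/+ Ctrl and reads in all 4 libraries, Igf2bp2 had the lowest ratio, and likewise among 4201 such genes in TGFB1. This minimum was set on the Hmga2+/+ libraries, where Igf2bp2 was high, and ranking was not among the planned comparisons. The ranks therefore describe the gene and are not a test. Without the requirement of 10 RPKM, 11311 genes with reads in all 4 libraries could be ranked. Igf2bp2 was then the second lowest in Ctrl, after Srp54b (1.72 against 0.0380 RPKM), and the lowest in TGFB1. Both rankings leave out genes at 0 in any library, Hmga2 and Mir763 among them. Such genes were kept, with 0 RPKM set to a small value, among the 11371 genes that reached 1 RPKM. There, 20 genes had a lower ratio than Igf2bp2 in Ctrl and 13 in TGFB1. Unlike Hmga2, Igf2bp2 kept a trace of RNA, and all 3 of its transcripts did so. They had 24.9 to 25.8 RPKM in Hmga2+/+ Ctrl and 0.722 to 0.798 RPKM in Hmga2-/- Ctrl, with log2 changes from −5.11 to −4.98. The genes around Igf2bp2 were looked at after its value was seen. Of the 5 other genes within 300 kb that reached 1 RPKM, Senp2 on one side had log2 changes of 0.13 and 0.20 in Ctrl and TGFB1, and Tra2b on the other side had −0.06 and −0.01. Etv5, Tmem41a and 1300002E11Rik lay between −0.16 and 0.28.

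Igf2bp1 (chromosome 11, 95957164 to 96005944, minus strand) had 4.54 RPKM (2129 reads) in Hmga2+/+ Ctrl, 6.40 RPKM (3064 reads) in Hmga2+/+ TGFB1, 4.92 RPKM (2325 reads) in Hmga2-/- Ctrl and 6.10 RPKM (2903 reads) in Hmga2-/- TGFB1. The Ctrl libraries were below the TGFB1 libraries in both genotypes. Its log2 change with Hmga2-/- was 0.12 (interval 0.03 to 0.20) in Ctrl and −0.07 (interval −0.14 to 0.00) in TGFB1. Igf2bp3 (chromosome 6, 49085218 to 49214954, minus strand) had 6.58 RPKM (1595 reads), 6.00 RPKM (1484 reads), 6.08 RPKM (1485 reads) and 5.10 RPKM (1254 reads) in the same order. Its log2 change was −0.11 (interval −0.22 to −0.01) in Ctrl and −0.23 (interval −0.34 to −0.12) in TGFB1. Neither gene was near the 1.5-fold mark between genotypes in its longest transcript. The shorter Igf2bp1 row of 58 to 73 reads and the Igf2bp3 row of 57 to 84 reads had levels under 1 RPKM and cover small stretches of these genes. Their log2 changes differed from those above, with −0.26 for the Igf2bp1 row with TGFB1 in Hmga2-/- MEF and −0.55 for the Igf2bp3 row with Hmga2-/- in TGFB1.

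The makeup of the family by RNA was therefore not alike in the genotypes. The 3 Igf2bp genes summed to 36.0 RPKM in Hmga2+/+ Ctrl and 35.1 RPKM in Hmga2+/+ TGFB1, of which Igf2bp2 made up 69.1% and 64.7%. In Hmga2-/- MEF the sum was 11.7 RPKM for Ctrl and 11.6 RPKM for TGFB1, of which Igf2bp2 made up 6.16% and 3.06%. Igf2bp3 then held the largest share in Ctrl (51.9%) and Igf2bp1 in TGFB1 (52.8%).

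Counted together, 3 of the 5 genes that reached 1 RPKM (Hmga2, Hmga1 and Igf2bp2) were at least 1.5-fold lower and 0 were at least 1.5-fold higher in Hmga2-/- than in Hmga2+/+ Ctrl MEF. Over all 11371 genes, 2.76% were lower and 3.02% higher by the same measure. The same 3 genes were lower and 0 were higher in TGFB1, where 2.79% of all genes were lower and 3.9% higher. Hmga2 is the knocked-out gene itself, so its part in these counts is a check of the label. Hmga2 and Igf2bp2 reached 1 RPKM only in Hmga2+/+ libraries, so the filter kept them through the libraries where they were high. The genes were also chosen with earlier results of these data known, so the counts describe them and are not a test of the group. At a threshold of 2-fold Hmga1 left the count and Hmga2 and Igf2bp2 remained. Sox2, a pluripotency and progenitor marker, was also lower in Hmga2-/- MEF, by −0.94 in Ctrl and −1.23 in TGFB1 on the log2 scale. The summed level of the 8 pluripotent cell markers was 2.02, 3.23, 1.12 and 1.42 RPKM in Hmga2+/+ Ctrl, Hmga2+/+ TGFB1, Hmga2-/- Ctrl and Hmga2-/- TGFB1, with Pou5f1, Zfp42, Dppa4, Dppa5a and Tdgf1 at 0 throughout, and its part in the result was not tested.

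**Figure D3:**
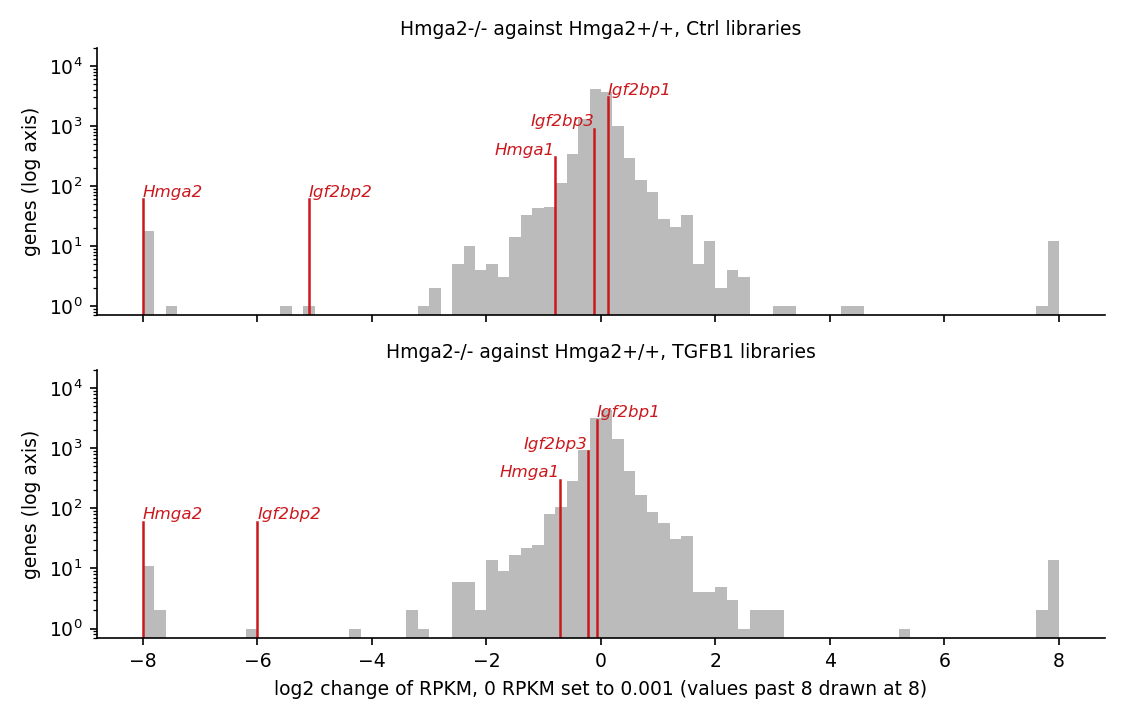
Histograms of the log2 change of Hmga2-/- against Hmga2+/+ MEF over 11371 genes, in Ctrl libraries above and TGFB1 libraries below, with the number of genes on a log axis and red lines at the named genes, each of arbitrary height. Hmga2, at 0 in the knockout, is drawn at the left edge, Igf2bp2 stands at −5.11 and −6.01 where few other genes lie, and Igf2bp1 and Igf2bp3 lie in the main peak.

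The second question of the design is how the genes respond to TGFB1, a growth factor that drives fibroblasts towards a contractile, matrix-producing state. The treatment was visible in both genotypes, since Ctgf, Smad7 and Acta2, which are among its usual targets, were higher with TGFB1 with log2 changes of 0.73 to 3.71 (Hmga2+/+) and 1.12 to 3.85 (Hmga2-/-). In Ctrl libraries, Ctgf and Acta2 were also higher in Hmga2-/- than in Hmga2+/+ MEF, with log2 changes of 0.91 and 1.60, and Smad7 had 0.06.

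Hmga2 itself was higher with TGFB1 in Hmga2+/+ MEF by a log2 change of 1.46 (interval 1.41 to 1.52). Hmga1 was higher by 0.98 (interval 0.85 to 1.11) in Hmga2+/+ and by 1.06 (interval 0.89 to 1.23) in Hmga2-/- MEF. Igf2bp1 was higher by 0.50 (interval 0.42 to 0.58) in Hmga2+/+ and by 0.31 (interval 0.23 to 0.39) in Hmga2-/- MEF. Both HMGA genes thus moved upward, Igf2bp1 moved the same way by less than 1.5-fold, and Igf2bp2 and Igf2bp3 lay on the other side of 0. With the libraries rescaled by the median ratio, the log2 change of Igf2bp1 in Hmga2+/+ MEF was 0.59, just past 1.5-fold. The same rescaling gave −0.04 for Igf2bp2 and −0.04 for Igf2bp3 in Hmga2+/+ MEF.

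Igf2bp2 was lower with TGFB1, by −0.13 (interval −0.19 to −0.08) in wild-type and −1.03 (interval −1.44 to −0.63) in knockout MEF, the latter from 158 against 78 reads. Igf2bp3 had −0.13 (interval −0.24 to −0.03) and −0.25 (interval −0.36 to −0.14). No fold is given for Hmga2 in Hmga2-/- MEF, where both libraries were at 0. Among the 5 genes, 2 were at least 1.5-fold higher (Hmga2 and Hmga1) and 0 lower with TGFB1 in Hmga2+/+ MEF, against 12.1% higher and 17.7% lower over all genes. In Hmga2-/- MEF 1 was higher (Hmga1) and 1 lower (Igf2bp2), against 13.8% higher and 15.9% lower. With a pseudocount of 1 RPKM the log2 change of Igf2bp2 in Hmga2-/- MEF was −0.35, no longer past 1.5-fold. These shares of all genes are large enough that a count of 1 or 2 in 5 says little about the group.

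**Figure D4:**
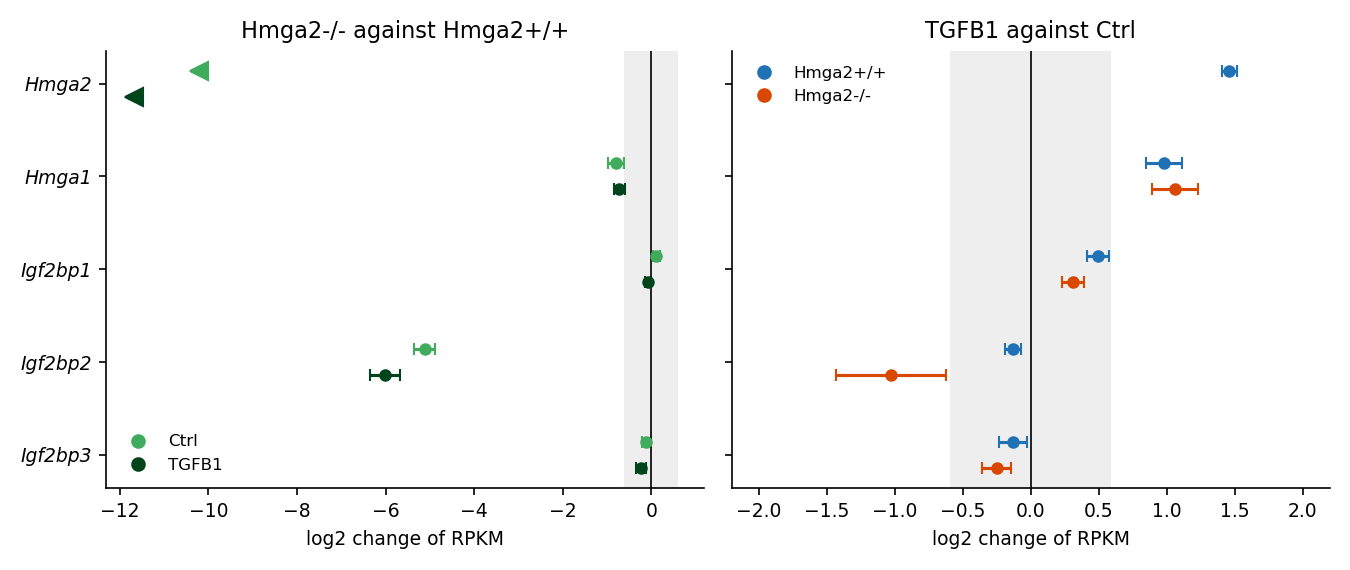
log2 change of RPKM for the 5 genes that reached 1 RPKM, genotype on the left and TGFB1 on the right. Points are single library ratios and bars are exact 95% intervals from counting error. Left-pointing triangles set Hmga2 against the floor of 3 reads, and the grey band is the range within 1.5-fold. Igf2bp2 in Hmga2-/- MEF has the widest bar because it rests on 158 and 78 reads.

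The difference between the genotypes in the TGFB1 response was set out for the 4 genes that had reads in all libraries. For Hmga1 the response in Hmga2-/- minus that in Hmga2+/+ MEF was 0.08 on the log2 scale (interval −0.13 to 0.30), a difference not detectable at this depth. For Igf2bp3 it was −0.12 (interval −0.27 to 0.03), not detectable either. For Igf2bp1 it was −0.18 (interval −0.30 to −0.07). For Igf2bp2 it was −0.90 (interval −1.31 to −0.49), between a small change from a level of 24.9 RPKM and a larger change from 0.722 RPKM. With a pseudocount of 1 RPKM, which weighs low levels down, the value for Igf2bp2 was −0.22. No library repeats these responses, so the intervals compare the 4 libraries and not the conditions. The comparisons of genotype and of TGFB1 also use the same 4 libraries and are not independent of each other.

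Genes of the same chromatin class and genes downstream of let-7 and the IGF2BP proteins were then listed by name, and up to 6 of each list are given, those with the largest log2 change in any comparison. For the counts with TGFB1 in these lists, the shares over all genes given above (12.1% higher and 17.7% lower in Hmga2+/+, 13.8% higher and 15.9% lower in Hmga2-/- MEF) and medians of −0.05 and 0.01 are the background, and for genotype the shares are 3.9% or less in either direction. Among 9 other HMG box and nucleosome-binding HMG genes, 0 were 1.5-fold apart between genotypes in Ctrl and 1 was higher in TGFB1. The latter was Hmgb3, a DNA-bending HMG box protein of progenitor cells, with 2.87, 4.34, 4.23 and 6.73 RPKM in Hmga2+/+ Ctrl, Hmga2+/+ TGFB1, Hmga2-/- Ctrl and Hmga2-/- TGFB1. Hmgn3, which binds nucleosomes, was lower with TGFB1 by log2 changes of −1.09 and −1.03 in the 2 genotypes. Hmgb2, an HMG box protein of dividing cells, had −0.71 and −0.41, and Hmgn2 had −0.63 and −0.12. Hmgn5 (−0.56 and −0.30) and Hmg20b (−0.34 and −0.18) were under 1.5-fold. With TGFB1, 1 of the 9 was higher and 3 lower in Hmga2+/+ MEF, and 1 was higher and 1 lower in Hmga2-/- MEF, where 1 of 9 is close to the background.

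Of 22 textbook let-7 targets other than the 7 genes, 18 reached 1 RPKM, and 14 of the 22 held a seed match by the search above. Between genotypes in Ctrl 1 was higher and 1 lower, and in TGFB1 0 were higher and 1 lower. Their median log2 change was 0.12 and 0.10, beside −0.02 and 0.04 over all genes. The lower one was Ccnd2, a cyclin of the start of the cell cycle, with 12.01, 14.7, 5.90 and 6.61 RPKM. Its log2 change was −1.02 (interval −1.10 to −0.95) in Ctrl and −1.15 (interval −1.23 to −1.08) in TGFB1. Its 3′ UTR held 0 matches, as did those of Cdk6, Myc and Ccnd1, which are described next. Cdk6, a kinase partner of D-type cyclins, had 0.844, 2.46, 1.45 and 1.89 RPKM, with a log2 change of 0.78 in Ctrl and −0.39 in TGFB1. Myc, the growth transcription factor, was higher with TGFB1 by 1.90 in Hmga2+/+ and 1.83 in Hmga2-/- MEF. Arid3a, a DNA-binding factor, was higher by 1.02 and 0.91, and Tgfbr1, the type I receptor for TGFB1, by 0.69 and 1.00. Ccnd1, another cyclin, was lower by −0.62 and −1.21. With TGFB1, 4 of the 18 were higher and 1 lower in Hmga2+/+ MEF, and 3 were higher and 1 lower in Hmga2-/- MEF, with medians of 0.30 and 0.32.

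Of 10 RNAs known as cargo of IGF2BP proteins, 8 reached 1 RPKM, and 0 of the 8 were 1.5-fold apart between genotypes in Ctrl or TGFB1. The median log2 change was 0.06 and 0.01. Igf2, the fetal growth factor for which the family is named, had 51.8, 49.2, 53.1 and 37.1 RPKM in Hmga2+/+ Ctrl, Hmga2+/+ TGFB1, Hmga2-/- Ctrl and Hmga2-/- TGFB1. In Ctrl its log2 change with Hmga2-/- was 0.03 (interval −0.00 to 0.07), beside −5.11 for Igf2bp2, and in TGFB1 it was −0.41 (interval −0.45 to −0.37). Cd44, a hyaluronan receptor, had 0.48 and 0.54, Myc had 0.45 and 0.38, and Actb, the cytoplasmic actin, had 0.32 and 0.41. Btrc, a ubiquitin ligase subunit, had −0.04 and −0.03. With TGFB1, Myc and Cd44 were the 2 of 8 that were higher in Hmga2+/+ MEF, and 3 were higher in Hmga2-/- MEF, where Actb (0.59) joined them.

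Of 11 genes of insulin and IGF signalling, all reached 1 RPKM, and 1 was higher and 1 lower between genotypes in Ctrl. Igfbp3, a secreted IGF-binding protein, was higher in Hmga2-/- MEF, with 4.59, 3.88, 10.0 and 7.15 RPKM and log2 changes of 1.13 in Ctrl and 0.88 in TGFB1. Igf1, the other IGF ligand, was lower in Ctrl by −1.03 and by −0.37 in TGFB1. In TGFB1 1 was higher and 1 lower as well, the latter being Igfbp5 (−0.66). Irs1, an adaptor of the insulin and IGF receptors, had 0.10 in Ctrl and −0.57 in TGFB1. Igfbp4, a binding protein that inhibits IGF action, was lower with TGFB1 by −1.64 in Hmga2+/+ and −2.31 in Hmga2-/- MEF. With TGFB1, 1 of the 11 was higher and 2 lower in Hmga2+/+ MEF, and 0 were higher and 2 lower in Hmga2-/- MEF, and 2 of 11 is close to the background.

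Of 11 other fetal growth genes, 8 reached 1 RPKM, with 1 higher and 2 lower in Hmga2-/- MEF both in Ctrl and in TGFB1. Plag1, a zinc finger activator of Igf2, had 2.18, 1.93, 0.649 and 0.554 RPKM in Hmga2+/+ Ctrl, Hmga2+/+ TGFB1, Hmga2-/- Ctrl and Hmga2-/- TGFB1. Its log2 change was −1.75 (interval −2.001 to −1.49) in Ctrl and −1.80 (interval −2.07 to −1.53) in TGFB1, so both Hmga2-/- libraries lay below both Hmga2+/+ libraries, as for Igf2bp2. Dlk1, an imprinted fetal membrane protein, was lower by −0.79 and −0.62. Gpc3, a glypican that restrains growth, was higher by 1.77 (interval 1.62 to 1.93) and 1.78 (interval 1.56 to 2.01). Plagl1, Mest and Peg3, which are imprinted, had genotype changes within 0.48 on the log2 scale. With TGFB1, 0 were higher and 5 lower in Hmga2+/+ MEF, and 0 were higher and 4 lower in Hmga2-/- MEF, with medians of −0.72 and −0.62.

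**Figure D5:**
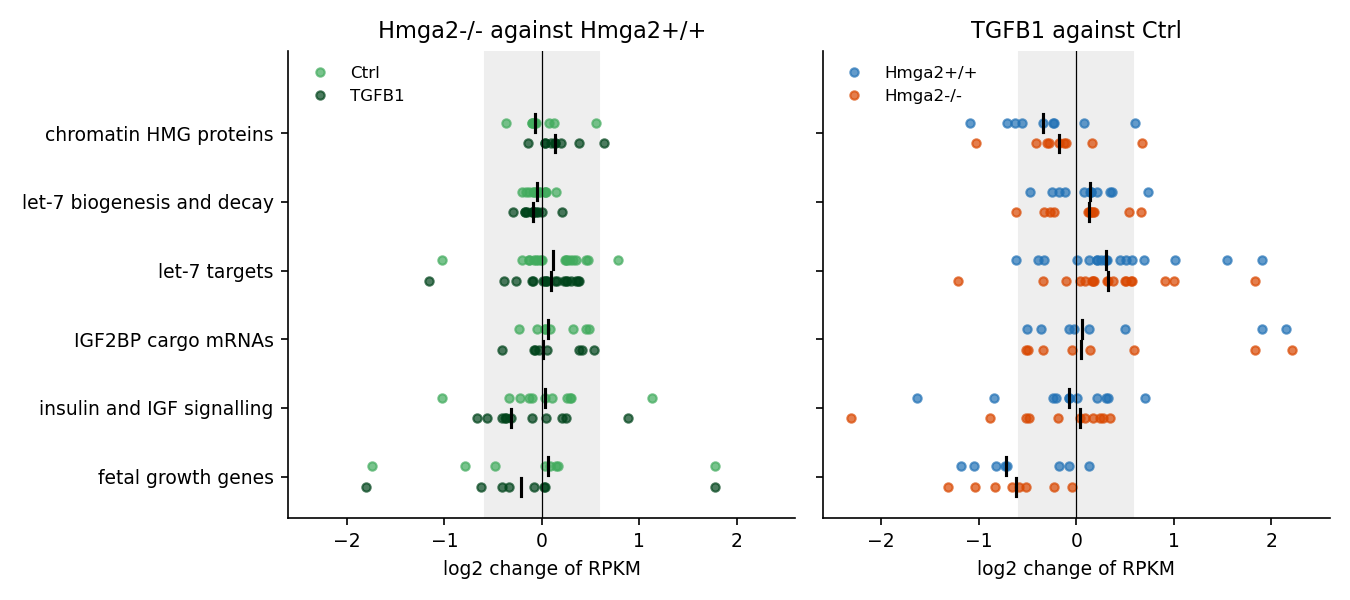
Each point is the log2 change of 1 gene that reached 1 RPKM, in 6 lists of genes around the HMGA, LIN28 and IGF2BP families, with genotype on the left, TGFB1 on the right, the list median as a black bar and the range within 1.5-fold in grey. Between genotypes most points lie in the grey band, and Plag1 (−1.75 and −1.80) and Gpc3 (1.77 and 1.78) are the outermost.

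The genes whose pattern over the 4 libraries was most like each of the 5 expressed genes were found by distance between centred log2(RPKM + 0.1) profiles among 11371 genes. The nearest to Hmga2 was Mir763 (distance 1.22), the row inside its own intron, and the next was Igf2bp2 (2.95). The nearest to Igf2bp2 were Mir7042 (1.85), a microRNA row with at most 1.25 RPKM, Hmga2 (2.95) and Nkx3-2 (3.05), a homeobox gene with 4.59, 2.08, 1.06 and 0.215 RPKM. Distances of this size are long, as the nearest profile to Igf2bp1 was Mrpl16 at 0.0181 and that to Igf2bp3 was Ccser2 at 0.0160. Hmga1 lay between, with Snord37 at 0.180, Slc38a1 at 0.236 and Vldlr at 0.240. With 4 libraries these distances describe the profiles and carry no test.

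The start sites of the genes were described in the window from 250 bases before to 50 bases after the RefSeq start, which was given for 6 of the 7 genes. AT-hooks bind AT-rich DNA, and the share of A or T in this window was 23.3% for Igf2bp2, 42.3% for Hmga2, 36.7% for Lin28a, 61.0% for Lin28b and 39.7% for Igf2bp3. For the 2 start sites of Hmga1 it was 26.0% and 27.7%. The median over 32851 such windows was 47.3%. Igf2bp2 thus had a GC-rich start, and 97.6% of all windows were at least as AT-rich. This is a count of letters and says nothing about where HMGA2 was bound.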

How the data were processed

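RNA-seq of total RNA (stranded kit, single-end reads) was analysed for 4 libraries, 1 per condition. Per the labels and methods, the authors used Trimmomatic for trimming and HISAT2 2.1.0 for mapping to mm10, and deposited RPKM from HOMER for UCSC known genes, rounded to 3 decimals. The table header names exons as counted, the methods name genes. The methods speak of duplicates, and whether they were pooled is not stated. The other deposited column used was transcript length.

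Of 63759 transcripts, 57708 were named where at least 50% of their span lay in a same-strand gene of GENCODE vM21, taking the gene with the closest ends. The transcript with the longest span stood for each gene. Mapped reads per library were found as the depth that turns RPKM and length into whole reads (100% of values within 0.1 read, transcripts under 600 bases), and reads from these. As in the methods, 1.5-fold was the threshold, and 0 RPKM was set to 0.001 for counts of genes past it. Printed changes against 0 reads use the floor of 3 reads instead. It was applied to genes that reached 1 RPKM in any library. Named genes were the 7 genes, up to 6 per list with the largest log2 change, and the 3 nearest profiles per gene, and some listed genes are not reported here. The genes and lists were chosen with earlier results of these data known. No count test was run, as no condition has replicates. Steps were tested on simulated data. Python 3.11.15, numpy 2.4.6, pandas 2.3.3, scipy 1.17.1 and matplotlib 3.10.9 were used. Alternatives changed the pseudocount, the RPKM minimum, the scaling, the threshold and the transcript.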

Additional observations from a re-analysis of the deposited data

Results flagged for a closer look

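In 4 let-7 precursor rows the TGFB1 response lay in opposite directions in the 2 genotypes, which was not tested since each condition has 1 library. The log2 response in Hmga2-/- minus that in Hmga2+/+ MEF was 0.46 for Mirlet7a-1, 0.87 for Mirlet7e and −0.35 for Mirlet7f-1, from 10 to 95 reads per library. For Mirlet7c-2 it was 2.49, from 0 to 10 reads, with the library at 0 reads set to the floor of 3 reads. The intervals of both single responses included 0 for Mirlet7a-1, Mirlet7e and Mirlet7f-1. None of the 7 genes met this description.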

How the results depend on the processing

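No paired analysis was possible because no condition has a second library. The count of genes past 1.5-fold stayed within 1.5 times its reported value under 22 of 24 alternatives. At counts of 2 or 3 this rule still lets a gene enter or leave. Hmga1 left both genotype counts at 2-fold, and Lin28b entered both TGFB1 counts without the RPKM minimum. Igf2bp1 entered the TGFB1 count in Hmga2+/+ MEF with rescaled libraries. With a threshold of 2-fold the TGFB1 count in Hmga2+/+ MEF was 1 (Hmga2) in place of 2, and with a pseudocount of 1 RPKM the TGFB1 count in Hmga2-/- MEF was 1 (Hmga1) in place of 2. For the difference between genotypes in the TGFB1 response, whose alternatives were chosen after seeing the data, 15 of 16 values stayed inside the reported interval, and Igf2bp2 had −0.22 with a pseudocount of 1 RPKM. Of 76 values for the log2 change of single genes, 64 stayed inside the reported interval or bound and 12 did not, and 0 had the other sign. Those 12 were values of Hmga2, Igf2bp2 and Igf2bp1. With a pseudocount of 1 RPKM the log2 change of Igf2bp2 with Hmga2-/- was −3.91 in Ctrl and −4.13 in TGFB1, by the construction of that scale at low levels. Rescaled libraries gave −0.04 for Igf2bp2 with TGFB1 in Hmga2+/+ MEF, in place of −0.13. Depth limits the Lin28 genes and the let-7 precursors, and the spread between cultures is unknown for all genes.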
